A study of Mus musculus with 6 samples.

Results

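The 10 genes described here encode enzymes of the pentose phosphate pathway and of the step that follows it. They were chosen by name from 35968 genes with a transcript in the deposited files. *G6pdx*, *H6pd*, *Pgls* and *Pgd*, 4 genes, form the oxidative branch. *Rpia*, *Rpe*, *Tkt* and *Taldo1*, another 4, form the non-oxidative branch, and *Prps1* and *Prps2* are the 2 phosphoribosyl pyrophosphate (PRPP) synthetase genes. RNA came from MS-5 cells, a mouse bone marrow stromal line, in RPMI medium with fetal serum. In 3 libraries (MO1, MO2 and MO3, for MS-5 only replicates 1 to 3) the MS-5 cells were cultured alone. In the other 3 (MC1, MC2 and MC3, for co-culture replicates 1 to 3) they had been kept for 24 hr beneath SKM-1 cells, a human acute myeloid leukaemia (AML) line, with 4 AML cells per stromal cell and 750000 SKM-1 cells per ml. The stromal cells were parted from the leukaemic cells by washing and mild trypsinisation before RNA was extracted, and reads were counted against mouse transcripts. The comparison thus rests on 1 stromal line, and the co-culture on 1 leukaemic line at 1 time point. No source used here says whether the 3 libraries of a group came from separate cultures, so the p-values measure the spread between libraries, which may be technical.

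The pentose phosphate pathway branches off glycolysis at glucose 6-phosphate. Its oxidative branch makes NADPH, which cells spend on lipid synthesis and on keeping glutathione reduced, and its reversible non-oxidative branch exchanges sugar phosphates between ribose 5-phosphate and the glycolytic intermediates fructose 6-phosphate and glyceraldehyde 3-phosphate. PRPP synthetases activate ribose 5-phosphate for the synthesis of nucleotides and NAD. Transcript levels of these enzymes do not measure flux through the pathway.

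Total estimated counts were between 23978881 and 35694987 per library, and no member had fewer than 407 counts in any library. MO2 and MC3 stood apart from the other 4 libraries. Counts were spread over 65170 and 66456 transcripts in these libraries and over 51533 to 57350 in the others, and the mitochondrial share of counts was 6.07% and 5.92% in these and 10.6% to 13.2% in the others. Of 12 stromal marker genes, 10 passed the filter on low counts, none of them passed the test, and *Lum* and *Dcn* were at or near 0. The summed TPM (a transcript level corrected for length and for the size of the library) of the 12 stromal markers ranged from 1854 to 2937 in MS-5 only and from 2280 to 3289 in co-culture. That of 12 leukocyte markers was 32.2 to 54.8 in MS-5 only, and 100.4 in MC1, 417.5 in MC2 and 132.9 in MC3. *Irf8*, a myeloid transcription factor, was at 0 in all MS-5 only libraries. *Lyz2* and *Cd53* were present in MS-5 only and did not rise (log2 fold changes -0.37 and -0.11, neither passed). Of the 12 leukocyte markers, 10 were tested, and 6 passed as higher in co-culture and none as lower. Over all genes tested, 3.71% passed as higher and 0.666% as lower. The part of the leukocyte signal in the values of the members was not tested.

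The 250 bases before a RefSeq start are given for *H6pd*, which rose, and for *Prps1* and *Prps2* (GRCm38.p6, 5′ to 3′ on the strand of the gene). *Prps1* and *Prps2* encode enzymes of the same step and were lower in co-culture on TPM, as was *Rpe*, whose window is not printed. The printed windows lie at chr4:150003237-150003486 on the minus strand for *H6pd*, chrX:140456353-140456602 on the plus strand for *Prps1* and chrX:167382750-167382999 on the minus strand for *Prps2*. The RefSeq start lies 106 bases before the start of H6pd-202, the most abundant *H6pd* transcript, and 10 and 0 bases before those of Prps1-201 and Prps2-201. H6pd-201 starts farther upstream, at 150009023, so the *H6pd* window lies inside the span of the gene. The bases before the start of H6pd-201 were not searched.
H6pd: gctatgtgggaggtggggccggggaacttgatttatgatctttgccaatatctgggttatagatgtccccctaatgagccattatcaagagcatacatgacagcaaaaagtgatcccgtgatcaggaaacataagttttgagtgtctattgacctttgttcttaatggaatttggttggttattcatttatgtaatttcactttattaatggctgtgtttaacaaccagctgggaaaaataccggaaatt
Prps1: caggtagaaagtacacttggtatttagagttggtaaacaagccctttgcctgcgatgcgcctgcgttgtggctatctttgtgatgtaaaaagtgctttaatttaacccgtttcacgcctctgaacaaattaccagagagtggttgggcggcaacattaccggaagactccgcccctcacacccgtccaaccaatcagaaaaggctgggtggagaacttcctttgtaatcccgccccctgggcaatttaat
Prps2: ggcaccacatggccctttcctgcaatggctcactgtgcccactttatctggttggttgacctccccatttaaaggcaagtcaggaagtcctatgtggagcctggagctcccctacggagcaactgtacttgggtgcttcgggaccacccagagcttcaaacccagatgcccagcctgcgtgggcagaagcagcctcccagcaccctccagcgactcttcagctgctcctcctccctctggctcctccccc
No letters stand in capitals because none of the 3 motifs searched on both strands was found in these windows or in the 50 bases that follow them. The motifs were ACGTG, the core of a hypoxia response element, CACGTG, an E-box that itself holds ACGTG, and TGACNNNGC, the core of an antioxidant response element. They occur in 19.62%, 7.15% and 12.39% of the 32851 mouse promoter windows of the same length. Among the 11 windows of the 10 members, only that of *G6pdx* held ACGTG, 30 bases after the RefSeq start. Only those of *G6pdx* (57 bases before the RefSeq start) and *Pgd* (1 of its windows, 4 bases after the RefSeq start) held TGACNNNGC. The RefSeq start of *G6pdx* lies 314 bases downstream of the start of G6pdx-201, its main transcript. That of the *Pgd* window lies 625 bases downstream of the start of Pgd-201. These matches thus all lie after the start of the main transcript. The *H6pd* window had a GC content of 39.33%, and those of the other members were between 51.33% and 67.33%. A match of letters is not a binding site.

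The comparison asked whether the transcripts of the pathway differed between MS-5 cells in co-culture and MS-5 cells alone. All 10 members passed the filter on low counts and were tested with 13221 genes in all. *H6pd* was the 1 member that passed the threshold, an adjusted p-value under 0.1 (edgeR's quasi-likelihood test, Benjamini-Hochberg adjustment over all genes tested), and it was higher in co-culture. No member passed in the lower direction, and 9 passed in neither. Over all genes tested, 4.38% passed, 3.71% higher and 0.666% lower in co-culture. *H6pd* was also the only member with an unadjusted p-value under 0.05, which 14.3% of all genes had. By DESeq2's Wald test *H6pd* again passed upward and no member downward, and by limma on log2(TPM + 0.5) no member passed. Over 19 alternatives the *H6pd* call was lost in 13. The 6 that kept it include the sum of *Prps1* and its copy *Prps1l3*, which does not alter *H6pd*. The call was also lost at thresholds of 0.05 and 0.01, which are not among the 19. The log2 fold changes were positive in 4 members and negative in 6, with a median of -0.11, against -0.02 over all genes tested. In bulk RNA, fewer cells of a type and less RNA per cell cannot be told apart.

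**Figure D1:**
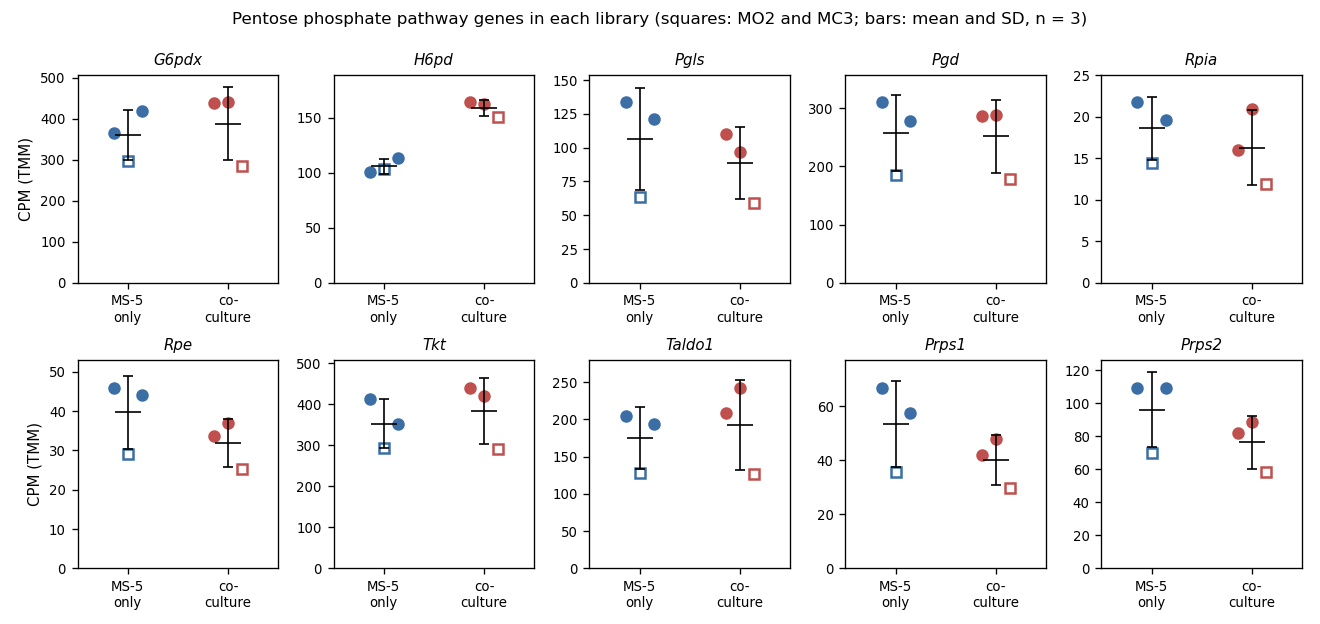
Level of each of the 10 members in the 6 libraries, in CPM (counts scaled to the library total, normalized by TMM) on axes that start at 0, with squares for MO2 and MC3, circles for the other libraries, and the mean and SD of each group (n = 3). In H6pd the co-culture libraries (150.9 to 164.6) sit above those of MS-5 only (101.0 to 113.9), and in the other 9 members the groups overlap.

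In the first oxidative step, *G6pdx* and *H6pd* encode the cytosolic glucose 6-phosphate dehydrogenase and the enzyme of the endoplasmic reticulum that carries out the same reaction and the next one within that compartment. *H6pd* (chromosome 4, 149979475 to 150009023, minus strand, GRCm38) was at 101.0, 103.7 and 113.9 CPM in MO1, MO2 and MO3, and at 164.6, 162.3 and 150.9 CPM in MC1, MC2 and MC3. Every co-culture library was above every MS-5 only library, which held for 11.6% of all genes tested, while 9.6% lay wholly below. The rise was 1.5-fold, a log2 fold change of 0.58 (SE 0.12, 95% interval 0.29 to 0.88, adjusted p = 0.0842, edgeR). The call was lost with an offset for effective transcript length (log2 fold change 0.49, adjusted p = 0.192), with library size alone (adjusted p = 0.111), with no filter (adjusted p = 0.144), with limma on log2(TPM + 0.5) (adjusted p = 0.785) and with any single library left out (adjusted p from 0.109 to 0.303). It was kept without both MO2 and MC3 (0.63, adjusted p = 0.077).

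*H6pd* had the longest mean effective length of the members, 3925 bases, and was the member whose CPM varied least with MO2 and MC3. On TPM, which divides by effective length, the separation of its groups was not complete. Its levels were 28.0, 43.13 and 32.64 TPM in MS-5 only (34.6 ± 7.75, SD, n = 3) and 44.02, 40.60 and 61.42 TPM in co-culture (48.7 ± 11.2), so that MO2 lay above MC2. Within the 4 libraries other than MO2 and MC3, co-culture was higher by 0.61 on the log2 CPM scale, and between MC3 and MO2 by 0.54. The summed TPM of the leukocyte markers was also higher in every co-culture library, and its part in the *H6pd* result was not tested. No stretch of 31 bases in H6pd-202 is shared with another gene of the mouse annotation. Human transcripts were not compared.

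Both long *H6pd* transcripts had a higher mean level in co-culture. H6pd-202 (4571 bases) held 63.1% to 79.2% of the gene's TPM in a library. H6pd-202 was at 17.66, 33.79 and 20.87 TPM in MS-5 only and at 32.16, 31.49 and 48.66 TPM in co-culture. H6pd-201 (4745 bases), whose start lies farther upstream, was at 6.20, 4.66 and 5.33 TPM in MS-5 only and at 7.37, 5.73 and 7.91 TPM in co-culture. The groups overlapped in both transcripts, through the high MO2 value of H6pd-202 and the low MC2 value of H6pd-201. The short H6pd-204 (650 bases) was at 2.84 to 3.84 TPM in MS-5 only and 2.76 to 3.69 TPM in co-culture.

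**Figure D2:**
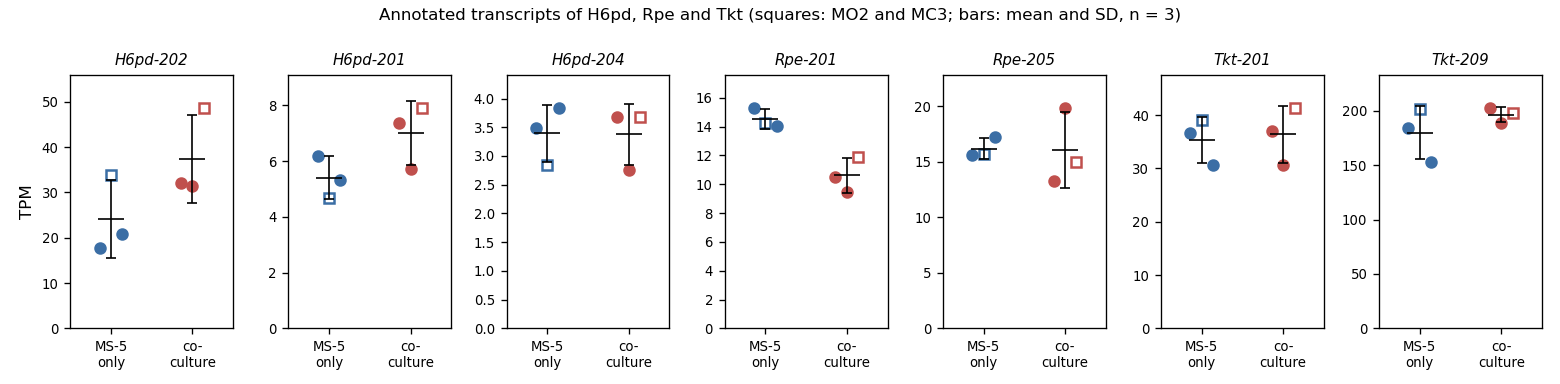
TPM of the main annotated transcripts of H6pd, Rpe and Tkt in the 6 libraries, on axes that start at 0, with squares for MO2 and MC3, circles for the other libraries, and the mean and SD of each group (n = 3). The groups are apart only in Rpe-201, with 14.02 to 15.3 TPM in MS-5 only and 9.45 to 11.91 TPM in co-culture.

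*G6pdx* (chromosome X, 74409483 to 74429194, minus strand) was at 366.2, 296.2 and 419.2 CPM in MS-5 only and 438.1, 441.5 and 286.2 CPM in co-culture. The groups overlapped, with the lowest value in MC3 and the next in MO2. The log2 fold change was 0.11 (SE 0.24, 95% interval -0.46 to 0.68, adjusted p = 0.939). Of the 2622 stretches of 31 bases in its main transcript, 465 (17.7%) occur in other genes, 388 of them in *G6pd2*, an autosomal copy of *G6pdx* on chromosome 5. *G6pd2* itself held 0, 1 and 1 counts in MO1, MO2 and MO3 and 0 in each co-culture library. Of the 465, 102 occur in *Ikbkg*, some of them in both genes. *Ikbkg* overlaps *G6pdx* on the opposite strand. The libraries were made with a stranded kit, but no source used here states a strand setting for the counting. The ratio of *H6pd* to *G6pdx* TPM was 0.166, 0.205 and 0.178 in MO1, MO2 and MO3, and 0.220, 0.207 and 0.297 in MC1, MC2 and MC3. All co-culture ratios were higher than those of MS-5 only, by a narrow margin between MC2 and MO2.

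*Pgls* and *Pgd* carry the oxidative branch on, as 6-phosphogluconolactonase and as the 6-phosphogluconate dehydrogenase that makes NADPH and ribulose 5-phosphate. *Pgls* (chromosome 8, 71592176 to 71601092, plus strand) was at 133.9, 63.37 and 121.4 CPM in MS-5 only and 110.3, 96.99 and 58.95 CPM in co-culture. Its interval was the widest of the members, with a log2 fold change of -0.26 (SE 0.35, 95% interval -1.09 to 0.57, adjusted p = 0.854). *Fam129c*, which overlaps *Pgls* on the same strand, held 4 to 104 counts. *Pgd* (chromosome 4, 149149991 to 149166771, minus strand) was at 310.7, 184.5 and 277.3 CPM in MS-5 only and 286.5, 288.5 and 179.0 CPM in co-culture. Its values interleaved, and its log2 fold change was -0.03 (SE 0.28, 95% interval -0.70 to 0.63, adjusted p = 0.989).

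In the non-oxidative branch no member passed the test (0 of 4). *Tkt* and *Taldo1*, which encode transketolase and transaldolase, the enzymes that exchange carbon units with glycolysis, made up 89.5% to 90.4% of the branch's TPM in MS-5 only and 90.8% to 92.6% in co-culture. *Tkt* (chromosome 14, 30548359 to 30574720, plus strand) was at 411.8, 293.7 and 352.6 CPM in MS-5 only and 440.8, 420.0 and 291.0 CPM in co-culture. *Taldo1* (chromosome 7, 141392199 to 141402968, plus strand) was at 204.1, 128.0 and 193.9 CPM in MS-5 only and 208.4, 242.7 and 126.1 CPM in co-culture. In both genes MC1 and MC2 were above all MS-5 only libraries, and MC3 was below all of them. Their log2 fold changes were 0.12 (SE 0.23, 95% interval -0.42 to 0.67, adjusted p = 0.917) and 0.13 (SE 0.29, 95% interval -0.57 to 0.84, adjusted p = 0.939).

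Within *Tkt*, Kallisto gave 80.7% to 85.7% of the TPM to Tkt-209 (1962 bases), which the annotation calls a processed transcript, and 13.9% to 16.9% to the coding Tkt-201 (3223 bases). Tkt-209 was at 184, 201.5 and 153.3 TPM in MS-5 only and 202.6, 188.7 and 197.9 TPM in co-culture. Tkt-201 was at 36.56, 39.02 and 30.62 TPM in MS-5 only and 37.07, 30.64 and 41.34 TPM in co-culture. Neither transcript set the groups apart. Tkt-209 shares no stretch of 31 bases with another gene, and the relatives of *Tkt*, *Tktl1* and *Tktl2*, held at most 4 counts in a library. Of the 1199 stretches in Taldo1-201, 302 (25.2%) occur in the processed pseudogene *Gm17823*, which held 0 or 1 counts in each library.

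*Rpia* and *Rpe* encode the isomerase and the epimerase that convert ribulose 5-phosphate to ribose 5-phosphate and xylulose 5-phosphate. *Rpia* (chromosome 6, 70765720 to 70792232, minus strand), the least abundant member on every scale, was at 21.79, 14.39 and 19.67 CPM in MS-5 only and 16.05, 20.98 and 11.85 CPM in co-culture. The groups overlapped, and the log2 fold change was -0.19 (SE 0.26, 95% interval -0.82 to 0.43, adjusted p = 0.857). Rpia-202, a transcript with a retained intron, was listed at 0, 27.56 and 0 counts in MO1, MO2 and MO3 and in co-culture at 16.82, 50.8 and 31.91, and was not compared.

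*Rpe* (chromosome 1, 66700831 to 66719805, plus strand) was at 46.02, 29.03 and 44.19 CPM in MS-5 only and 33.69, 37.05 and 25.24 CPM in co-culture. On CPM the groups overlapped because of the low MO2 value, and the log2 fold change was -0.31 (SE 0.23, 95% interval -0.87 to 0.25, adjusted p = 0.652). On TPM they did not, with 32.59, 31.89 and 32.09 TPM in MS-5 only (32.2 ± 0.356) and 25.20, 31.05 and 29.21 TPM in co-culture (28.5 ± 2.99). The coding transcript Rpe-201 (2692 bases) was at 15.3, 14.28 and 14.02 TPM in MS-5 only and 10.49, 9.45 and 11.91 TPM in co-culture, all of the latter lower. *Kansl1l*, which overlaps the end of *Rpe* and of Rpe-201 on the opposite strand, held 267 to 744 counts in a library, highest in MO2 and MC3, and its part in the *Rpe* values was not tested. Rpe-205 (759 bases), annotated as a target of nonsense-mediated decay, was at 15.59, 15.74 and 17.26 TPM in MS-5 only and 13.31, 19.87 and 14.95 TPM in co-culture, which overlap.

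*Prps1* and *Prps2*, both on the X chromosome, encode the enzymes that turn ribose 5-phosphate and ATP into PRPP. *Prps1* (140456613 to 140476140, plus strand) was at 67.02, 35.90 and 57.43 CPM in MS-5 only and 42.11, 48.10 and 29.92 CPM in co-culture. *Prps2* (167346322 to 167382749, minus strand) was at 109.0, 69.87 and 109.4 CPM in MS-5 only and 82.03, 88.60 and 58.31 CPM in co-culture. In both genes MO1 and MO3 lay above every co-culture library, and MO2 lay below MC1 and MC2. Neither passed the test, with log2 fold changes of -0.42 (SE 0.28, 95% interval -1.09 to 0.26, adjusted p = 0.603) and -0.33 (SE 0.24, 95% interval -0.91 to 0.24, adjusted p = 0.637).

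Per length, the PRPP synthetases were lower in every co-culture library. *Prps1* was at 40.22, 33.41 and 33.60 TPM in MS-5 only (35.7 ± 3.88, SD, n = 3) and 25.43, 27.65 and 28.05 TPM in co-culture (27.0 ± 1.41). *Prps2* was at 34.79, 37.53 and 34.07 TPM in MS-5 only (35.5 ± 1.83) and 26.44, 28.02 and 31.42 TPM in co-culture (28.6 ± 2.54). With *Rpe* these were the 3 members of 10 whose co-culture TPM lay wholly below that of MS-5 only, a pattern of 7.53% of all genes tested. No member lay wholly above, as 7.68% of all genes did. With limma on log2(TPM + 0.5) none of the 10 members passed the threshold.

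*Prps1* shares 364 of its 1935 stretches of 31 bases (18.8%) with *Prps1l3*, a copy on chromosome 12 that held 912, 652 and 806 counts in MO1, MO2 and MO3 and 827, 732 and 625 in the co-culture libraries. Reads of the 2 genes can be split between them by the quantification, so their separate levels are uncertain. The TPM of *Prps1* was 1.59, 1.49 and 1.35 times that of *Prps1l3* in MO1, MO2 and MO3, and 1.44, 1.36 and 1.42 times in MC1, MC2 and MC3, which overlap. Summing both genes gave a log2 fold change of -0.39 (adjusted p = 0.634), close to that of *Prps1* alone. Prps2-201 shares 15 of 3657 stretches (0.41%) with other genes.

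**Figure D3:**
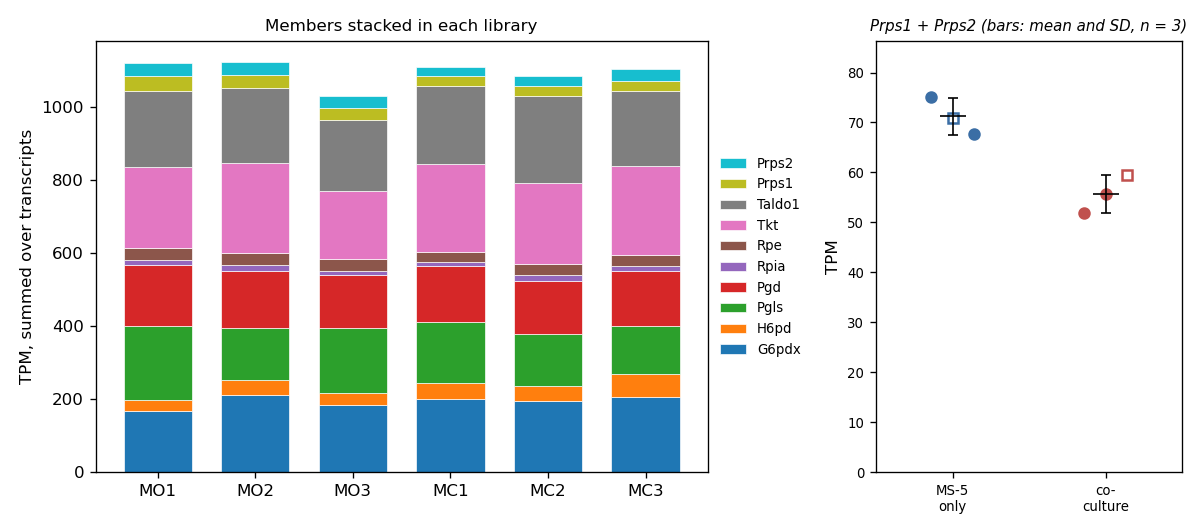
Left, deposited TPM of the 10 members stacked in each library; right, the sum of Prps1 and Prps2 in TPM by group, with squares for MO2 and MC3, circles for the other libraries, and the mean and SD (n = 3). The stacks differ little in height (1030 to 1123 TPM), while the Prps1 and Prps2 sum is 67.66 to 75.01 TPM in MS-5 only and 51.87 to 59.47 TPM in co-culture.

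Summed over its 4 genes, the oxidative branch was at 565.8, 552.0 and 538.6 TPM in MS-5 only and 564.9, 523.6 and 551.2 TPM in co-culture. The non-oxidative branch was at 478.0, 499.9 and 424.1 TPM in MS-5 only and 492.6, 505.7 and 490.9 TPM in co-culture. Both branches thus overlapped between the groups. The ratio of the oxidative to the non-oxidative sum was 1.184, 1.104 and 1.27 in MO1, MO2 and MO3 (1.19 ± 0.083, SD, n = 3) and 1.147, 1.035 and 1.123 in MC1, MC2 and MC3 (1.10 ± 0.0587). Its log2 difference of -0.11 was of the size of the spread within groups (SD 0.09), and its sign depended on the unit, at 0.0136 on estimated counts and 0.0849 as a mean of log2 TPM over the members. The median log2 fold change of the 4 members, from the count fit, was 0.04 in the oxidative branch and -0.04 in the non-oxidative branch, and -0.37 in the 2 PRPP synthetases. The signs of the branch medians depended on single libraries, the oxidative median running from -0.13 without MO2 to 0.22 without MC3 and the non-oxidative from -0.25 without MC2 to 0.14 without MC3. With the effective length offset they were 0.04 and 0.04. The sum of *Prps1* and *Prps2* was 75.01, 70.94 and 67.66 TPM in MS-5 only (71.2 ± 3.68) and 51.87, 55.67 and 59.47 TPM in co-culture (55.7 ± 3.80), a log2 difference of -0.36 with no overlap. It is a score over members and was not tested.

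The order of the levels per length was led in both groups by *Tkt*, *Taldo1* and *G6pdx*. In MS-5 only these were at 218 ± 30.9, 203 ± 8.04 and 188 ± 21.0 TPM (SD, n = 3), and they did not differ beyond their spread. *Pgls* (142.4 to 204 TPM) and *Pgd* (154 ± 11.1 TPM) followed in MS-5 only, and *Pgd* (150 ± 3.83 TPM) and *Pgls* (147 ± 19.2 TPM) in co-culture, where they again overlapped. *Prps1*, *Prps2*, *H6pd* and *Rpe* came next in MS-5 only, between means of 35.7 and 32.2 TPM that were closer to each other than the SD of *H6pd*, and *Rpia* was last in both groups. In co-culture *H6pd* came before *Prps2*, *Rpe* and *Prps1*, its lowest library (40.60 TPM) lying above the highest of those genes (31.42 TPM).

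**Figure D4:**
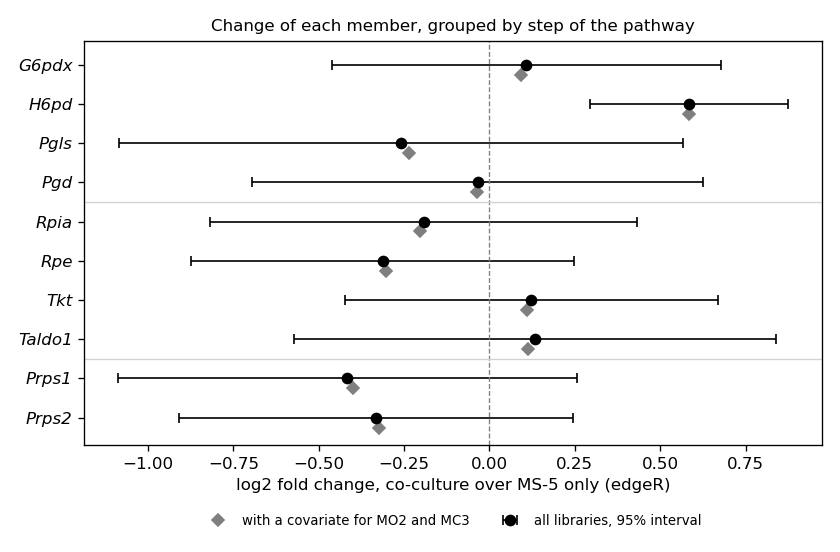
Log2 fold change of co-culture over MS-5 only for each member (edgeR; black points with 95% intervals), with grey diamonds for the fit that has a covariate for MO2 and MC3, and lines between the oxidative, non-oxidative and PRPP synthetase genes. Only the interval of H6pd (0.29 to 0.88) lies clear of 0, and the estimates of the fits nearly coincide.

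MO2 and MC3 moved with most members. MO2 had the lowest CPM of the MS-5 only group in 9 of 10 members, and MC3 the lowest of the co-culture group in 10 of 10. The share of all genes tested with these patterns was not computed, so they are not read as a trait of the members. In *Pgls*, which has the shortest mean effective length (713 bases), MO2 lay 1.01 and MC3 0.81 below the rest of their group on the log2 CPM scale, whereas in *H6pd* they lay 0.05 and 0.12 below. The members between these did not follow length closely. *Prps2*, at 3222 bases, was 0.64 and 0.55 below, and *Tkt*, at 1963 bases, 0.38 and 0.56 below. The groups were also compared with a covariate that sets MO2 and MC3 against the other 4 libraries, taken from the principal component plot of the study. That plot was drawn from the same libraries that are tested here, so the adjusted p-values with the covariate may be too small.

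**Figure D5:**
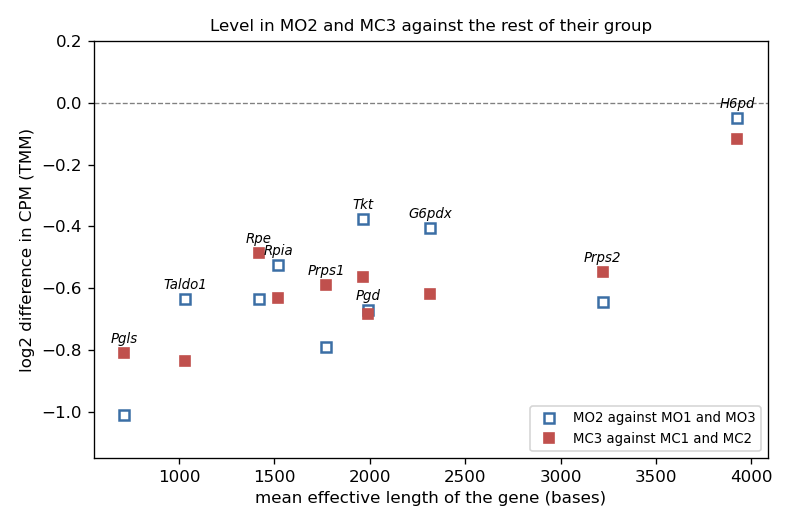
Log2 difference in CPM between MO2 and the mean of MO1 and MO3 (open squares) and between MC3 and the mean of MC1 and MC2 (filled squares) for each member, against its mean effective length in bases. The differences run from -1.01 in Pgls, the shortest member, to -0.05 in H6pd, the longest, with the others between.

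With that covariate, 4 members passed the threshold. *H6pd* was higher (log2 fold change 0.58, adjusted p = 0.011), and *Rpe* (-0.30, adjusted p = 0.0431), *Prps1* (-0.40, adjusted p = 0.0389) and *Prps2* (-0.32, adjusted p = 0.0235) were lower. In this fit 13.9% of all genes tested passed as higher and 16.4% as lower, so 1 member higher and 3 lower of 10 must be read against many calls. The estimates hardly moved from those without the covariate, and the standard errors became smaller, in *Prps2* from 0.24 to 0.07. Without MO2 and MC3, with 2 libraries in each group, *Rpe*, *Prps1* and *Prps2* did not pass (adjusted p = 0.129, 0.111 and 0.103). Within the 4 libraries the log2 CPM differences were -0.35, -0.46 and -0.36, and between MC3 and MO2 they were -0.20, -0.26 and -0.26, so the direction was the same on both sides.

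Other genes that touch the pathway were counted from lists. Of 15 accessory genes, among them ribokinase, the PRPP synthetase-associated proteins and the look-alike copies of the members, 10 were tested and none passed in either direction (median log2 fold change -0.06). At an unadjusted p-value under 0.05 there was 1 gene of the 10, which was lower, against 14.3% of all genes tested. This gene, *Tigar*, named after its values were seen, encodes a fructose 2,6-bisphosphatase that directs glucose 6-phosphate towards the pentose pathway. It was at 15.77, 12.10 and 13.01 CPM in MS-5 only and 7.75, 9.51 and 8.53 CPM in co-culture (log2 fold change -0.66, SE 0.18, adjusted p = 0.129, edgeR). Its co-culture libraries lay wholly below those of MS-5 only, as in 9.6% of all genes tested. With the covariate, 1 of the 10 tested accessory genes was higher and 3 were lower, *Tigar* among them (adjusted p = 0.0262), where 13.9% and 16.4% of all genes tested passed.

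Of 12 genes for the glycolytic steps around the points where the pathway leaves and rejoins glycolysis, 10 were tested, 2 passed as higher (3.71% of all genes did) and none as lower, and the median log2 fold change was 1.11. *Pfkl*, a phosphofructokinase subunit, was at 267.8, 202.3 and 238.9 CPM in MS-5 only and 886.4, 695.2 and 560.5 CPM in co-culture, a 3.02-fold rise (log2 fold change 1.60, SE 0.23, adjusted p = 0.0734). *Hk2*, a hexokinase that makes glucose 6-phosphate, was at 20.28, 16.30 and 11.42 CPM in MS-5 only and 34.33, 36.35 and 32.78 CPM in co-culture, a 2.15-fold rise (log2 fold change 1.11, SE 0.22, adjusted p = 0.0779). Of the 10 tested genes, 8 had all co-culture libraries above all of MS-5 only, against 11.6% of all genes, and with the covariate all 10 passed as higher, against 13.9%.

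Among 12 other sources of NADPH, such as malic enzyme and the NADP-dependent isocitrate dehydrogenases, none passed (median -0.12, 1 gene higher and 1 lower at an unadjusted p-value under 0.05), and with the covariate none was higher and 3 were lower. Of 9 targets of NRF2, a transcription factor that also controls oxidative pentose genes, 1 passed, *Hmox1*, haem oxygenase. *Hmox1* was at 121.7, 103.3 and 120.7 CPM in MS-5 only and 193.8, 179.7 and 159.5 CPM in co-culture (log2 fold change 0.62, SE 0.14, adjusted p = 0.0916), while the median of the list was -0.22. With the covariate 1 of the 9 was higher and 4 were lower. Downstream of the PRPP synthetases, 8 of 9 genes that use PRPP were tested and none passed (median -0.41, 2 higher and 2 lower at an unadjusted p-value under 0.05), and with the covariate 2 were higher and 5 lower. Of 6 genes for ribonucleotide reductase and thymidylate synthesis, 1 passed as lower (median -0.57, none higher and 4 lower at an unadjusted p-value under 0.05). The gene that passed, *Rrm2*, the small subunit of ribonucleotide reductase, was at 553.7, 371.4 and 440.7 CPM in MS-5 only and 248.5, 256.5 and 210.3 CPM in co-culture (log2 fold change -0.93, SE 0.20, adjusted p = 0.087). With the covariate 5 of the 6 passed as lower. The counts of these 4 lists are to be read against all genes tested, of which 3.71% passed as higher and 0.666% as lower, 14.3% had an unadjusted p-value under 0.05, and 13.9% passed as higher and 16.4% as lower with the covariate.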

How the data were processed

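RNA-seq libraries of MS-5 cells cultured alone (n = 3) and after co-culture with SKM-1 cells (n = 3) were assigned to groups and replicate numbers from the sample labels. The members and the gene lists were chosen with earlier results of these data known. The submitters' processing notes name FastQC 0.11.7, Kallisto 0.43.0 and Sleuth 0.30.0. From Kallisto on a mouse transcript index, the authors deposited an estimated count per transcript, not normalized between libraries. The TPM values that the authors deposited correct this count for effective length and library total. The deposited lengths and effective lengths, in bases, were used for the length offset. Per the labels the build is mm10, and the methods name GRCm38. Of 118489 transcripts, 116728 matched GENCODE M21 by version and length, and the other 1761, with 0.477% to 0.562% of a library's counts, were left out.

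For each gene the estimated counts of its transcripts were added and rounded. The filterByExpr filter left 13221 of 35968 genes, TMM factors were 0.923 to 1.18, and groups were compared with the quasi-likelihood test of edgeR 4.0.16 in R 4.3.3 (Benjamini-Hochberg adjustment, threshold 0.1). For 1 gene alone, exact permutation of 3 libraries against 3 allows no two-sided p-value under 0.1. Standard errors and 95% intervals come from that fit. TPM levels are given as mean ± SD. Shared sequence was counted in stretches of 31 bases of a member's main transcript against all other genes of the mouse annotation. Promoters were RefSeq windows of 250 bases before and 50 after a start, 11 for the 10 members. The fits were tested on simulated data. Alternatives were scaling by library size or by the size factors of DESeq2, the Wald test of DESeq2 1.42.0, limma 3.58.1 on log2(TPM + 0.5), where the pseudocount was also 0.1 or 1, an effective length offset, a filter of 5 counts in 3 libraries, no filter, thresholds of 0.05 and 0.01, a block for the replicate number, a term for MO2 and MC3 as a covariate, and fits without both of these or without any single library. For the ratio of the branches they were estimated counts, a mean of log2 values, and sums without *H6pd* or *Tkt*. The sum of *Prps1* and *Prps1l3* was added after the data were seen. All 10 members were named, and of the lists at most the genes past the threshold or copies that could share reads. *Tigar*, *Lum*, *Dcn*, *Lyz2* and *Cd53*, outside this rule, were named after their values were seen. Transcripts with at least 10% of a gene's TPM in any library were considered. Sleuth, the authors' test, was not used.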

Additional observations from a re-analysis of the deposited data

How the results depend on the processing

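No member had fewer than 407 counts in a library, and depth was not varied. The number of genes called (579) was 1268 with DESeq2's Wald test, 264 and 111 with limma on log2(TPM + 0.5) and log2(TPM + 1), 3999 with the covariate for MO2 and MC3, 1702 without these libraries, 2 and 0 at thresholds of 0.05 and 0.01, and 0 to 549 with each library left out (0 without MO1, MO2 or MO3, 283 without MC1, 281 without MC2). Of the members, 1 was called. It was 4 with the covariate and 0 with library size alone, limma at each of the pseudocounts, the effective length offset, no filter, the thresholds of 0.05 and 0.01, and each library left out (0 to 0), where the cause was not tested except that fewer samples were fitted. It was 1 with DESeq2's size factors or Wald test, the filter of 5 counts, and without MO2 and MC3. The log2 fold change of *H6pd* was 0.48 to 0.64 over 19 alternatives, with adjusted p-values from 4.103e-06 (DESeq2) to 0.81 (limma), and the call was lost in 13 of them. Those of *Prps1* (-0.64 to -0.20), *Prps2* (-0.52 to -0.17) and *Rpe* (-0.50 to -0.17) stayed negative in all 19 and passed only with the covariate. The sign turned only with a library left out, in *Pgd* (-0.23 to 0.16), *G6pdx* (-0.0197 to 0.29) and *Taldo1* (-0.0718 to 0.36). The log2 ratio of the branches (-0.11) was 0.0136 on estimated counts and 0.0849 as a mean of log2 values, and -0.16 to -0.05 with each library left out. The median log2 fold change was -0.13 to 0.22 in the oxidative branch and -0.25 to 0.14 in the non-oxidative branch with each library left out, and that of the non-oxidative branch was also above 0 with limma, the length offset (0.04) and without MO2 and MC3 (0.02).

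With the replicate block, 444 genes and 0 members were called, and *H6pd* had a log2 fold change of 0.59 (adjusted p = 0.416). Whether the replicate numbers pair the libraries was not settled. The deviations from the group means correlated across genes by 0.53, -0.29 and -0.52 in the same-numbered pairs. MO1 correlated best with MC1, whereas MO2 correlated best with MC3, by 0.73, and MO3 with MC1, by 0.39. With 3 libraries in a group, and MO2 and MC3 apart from the rest, these values cannot decide whether the cultures were paired.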
